A study of Mus musculus with 11 samples.

Results

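In mouse granulosa cells, which nurse the oocyte within the ovarian follicle, 544 genes gave RNA but almost no reads of the histone mark H3K4me3. They were selected on measured values: a mean of at least 5 CPM (counts of a gene per 1000000 counts of its library) over 6 RNA libraries, and a mean under 5 CPM over 4 H3K4me3 libraries. They made up 4.82% of the 11285 genes that passed the same RNA minimum, among 24525 Entrez gene IDs counted in both assays. The remaining 10741 genes are called the other expressed genes here, and the 544 are called the low-H3K4me3 genes. Of these, 524 were protein-coding, 9 were lncRNAs, 4 were transcribed pseudogenes, 2 were miRNAs, 1 was a snoRNA and 4 had no entry in the gene table.

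H3K4me3, the trimethylated form of lysine 4 of histone H3, is a chromatin mark found at the starts of most genes that RNA polymerase II transcribes. In mammals it is laid down in large part at CpG islands, stretches in which the dinucleotide CG has not been lost, because proteins that bind unmethylated CG bring in the methyltransferase complexes. Promoters without such an island depend more on cell-type-specific factors, and they carry the mark mainly while active. Many genes also have several alternative starts, and a measurement at one of them does not read the others.

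The cells came from C57BL/6 mice by follicular puncture, and the groups were untreated animals (0 h) and animals 48 h after equine chorionic gonadotropin (eCG), which acts like follicle-stimulating hormone (FSH) in mice and is called FSH in the labels. Each group had 3 RNA-seq libraries, from mice at postnatal day 21 by the labels, and 2 libraries of H3K4me3 chromatin immunoprecipitation, for which the labels give no age. No untreated group was taken at 48 h, so hormone and elapsed time cannot be told apart. The series calls the libraries of a group biological replicates. Library totals were 12013849 to 26343971 counts for RNA and 11989769 to 17968033 for H3K4me3. All 20 granulosa markers on a fixed list were expressed, with summed levels of 29645 to 35500 CPM at 0 h and 55974 to 60057 CPM at 48 h, so the RNA carried the labelled cell type's genes in every library. Which region of a gene the H3K4me3 counts cover is not given in the sources used here, so a low value says only that few reads fell in that region.

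The low-H3K4me3 genes were moderately expressed. Their mean RNA had a median of 15.7 CPM, quartiles of 7.80 and 45.4 CPM, and a highest value of 2705 CPM, against a median of 43.0 CPM in the other expressed genes. Their H3K4me3 level had a median of 1.99 CPM and a range of 0.712 to 4.97 CPM, against a median of 72.7 CPM in the other expressed genes. These 4 sets of values are what chose the genes and are given as a description. As a scale for the label "without H3K4me3", 5129 genes with an RNA count of 0 in all 6 libraries had an H3K4me3 level with a median of 1.56 CPM and a 90th percentile of 4.38 CPM. Of the low-H3K4me3 genes 156 lay under that median; the limit of 5 CPM lies close to that 90th percentile, so most had to lie under it, and the comparison supports nothing about the label. None was at 0: a gene had 43 to 312 H3K4me3 reads over the 4 libraries together, with a median of 124, so "low" describes them better than "without".

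Some strongly expressed genes were among them. At a mean RNA of 5 to 10 CPM, 185 of 1216 expressed genes (15.2%) had low H3K4me3, at 10 to 20 CPM 124 of 1735 (7.15%), at 20 to 100 CPM 178 of 5957 (2.99%) and at 100 CPM or more 57 of 2377 (2.40%). The share was therefore largest next to the RNA minimum, but did not reach 0 at high RNA. At the RNA minimum genes just inside were Col6a6 at 5.004 CPM and Niban3 at 5.054 CPM, and those just outside were Ifi47 at 4.998 CPM, Fndc1 at 4.964 CPM and Gpld1 at 4.958 CPM. At the H3K4me3 limit, Kcnip3 (4.968 CPM), Slfn5 (4.963 CPM) and Ifi203 (4.943 CPM) lay just inside, and Trf (5.007 CPM), Steap4 (5.038 CPM) and Slc47a1 (5.044 CPM) just outside. RNA reached 5 CPM at both times in 460 genes, at 0 h alone in 42 and at 48 h alone in 42.

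**Figure D1:**
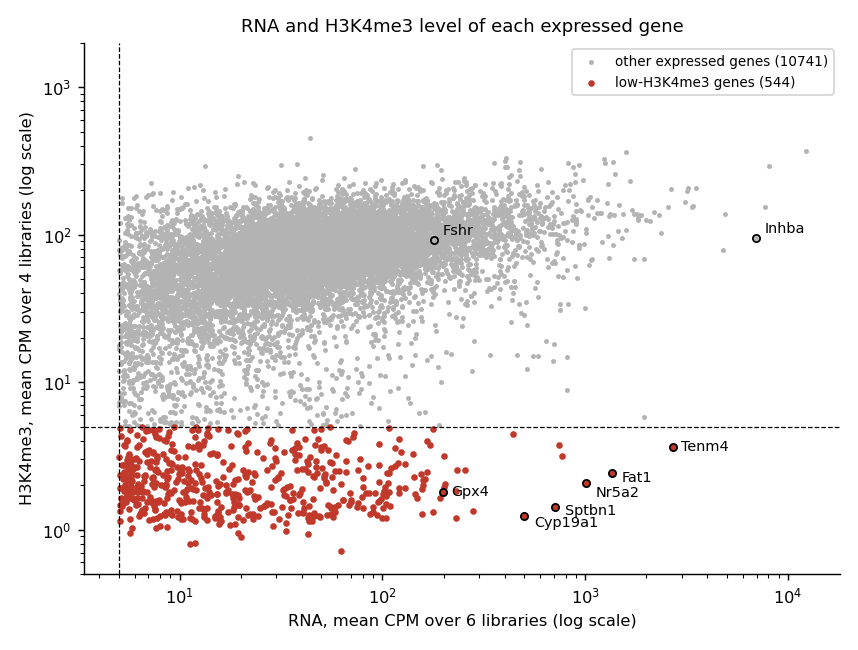
Mean RNA over 6 libraries (horizontal axis, CPM, log scale) against mean H3K4me3 over 4 libraries (vertical axis, CPM, log scale), 1 point per expressed gene, with dashed lines at 5 CPM on each axis. The 544 low-H3K4me3 genes (red) lie under the horizontal line and reach up to 2705 CPM of RNA (Tenm4), while Inhba and Fshr lie near 90 CPM of H3K4me3.

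The sequences just before annotated starts are printed because CG content is the feature counted next. RefSeq promoter sequences (assembly GRCm38.p6, the one mm10 stands for) were available for 422 of the 544 genes and for 8646 of the other expressed genes. The 100 bases before the first listed start, read 5′ to 3′ on the gene's strand, are given for 4 of the most highly expressed low-H3K4me3 genes and for the 4 with the largest rises in RNA, with every CG in capitals.
Tenm4, chr7:96171144-96171243, plus strand: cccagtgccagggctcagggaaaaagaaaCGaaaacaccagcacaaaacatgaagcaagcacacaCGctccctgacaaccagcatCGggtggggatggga
Fat1, chr8:44950108-44950207, plus strand: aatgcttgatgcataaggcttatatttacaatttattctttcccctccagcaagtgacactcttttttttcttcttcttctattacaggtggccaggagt
Nr5a2, chr1:136960449-136960548, minus strand: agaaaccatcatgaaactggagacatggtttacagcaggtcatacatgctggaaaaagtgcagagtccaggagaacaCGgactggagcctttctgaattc
Adgrg1, chr8:94977009-94977108, plus strand: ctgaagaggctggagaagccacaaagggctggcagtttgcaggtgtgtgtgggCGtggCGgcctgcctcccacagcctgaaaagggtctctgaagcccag
Pik3c2g, chr6:139613972-139614071, plus strand: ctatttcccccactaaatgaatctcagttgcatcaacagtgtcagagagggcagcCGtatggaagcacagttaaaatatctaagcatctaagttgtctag
Cdh15, chr8:122848274-122848373, plus strand: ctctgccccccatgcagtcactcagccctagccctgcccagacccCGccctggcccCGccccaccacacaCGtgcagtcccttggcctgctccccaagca
Plin4, chr17:56109783-56109882, minus strand: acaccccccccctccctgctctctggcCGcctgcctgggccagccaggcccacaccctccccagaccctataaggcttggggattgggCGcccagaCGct
Mmel1, chr4:154869485-154869584, plus strand: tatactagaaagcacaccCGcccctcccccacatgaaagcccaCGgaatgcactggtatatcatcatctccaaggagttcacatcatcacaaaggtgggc
All 8 held 0 to 3 CG in these 100 bases. For comparison, the same stretch is shown for 2 granulosa genes with a mean of over 90 CPM of H3K4me3, Inhba, which encodes an activin subunit, and Fshr, the FSH receptor.
Inhba, chr13:16011751-16011850, plus strand: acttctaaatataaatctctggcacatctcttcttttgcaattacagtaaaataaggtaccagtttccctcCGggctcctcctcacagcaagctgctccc
Fshr, chr17:89200676-89200775, minus strand: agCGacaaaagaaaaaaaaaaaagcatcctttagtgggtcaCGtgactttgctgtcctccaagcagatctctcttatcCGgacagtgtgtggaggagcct
Inhba held 1 CG and Fshr 3, so in these 2 genes few CG in this stretch did not go with low H3K4me3. Over 300 bases, CpG observed over expected, a ratio defined below, was 0.43 in Inhba, 0.5 in Fshr and 0.15 to 0.3 in the 8.

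Across all genes with a listed promoter, the CG content at the first start separated the sets, though not completely. CpG observed over expected, the number of CG divided by the number that the C and G content would give, was computed over 300 bases (250 before the start and 50 after it). At the first start its median was 0.277 in the low-H3K4me3 genes, with quartiles of 0.159 and 0.453, and 0.795 in the other expressed genes, with quartiles of 0.640 and 0.931. A value of 0.6 or more, here called CpG rich, was found at the first start of 68 low-H3K4me3 genes (16.1%) and of 6857 other expressed genes (79.3%). Read the other way, 354 of the 2143 expressed genes whose first start was not CpG rich had low H3K4me3 (16.5%), as did 68 of the 6925 whose first start was CpG rich (0.982%). In each of 4 ranges of RNA the medians lay apart in the same direction: they were 0.262 and 0.697 at 5 to 10 CPM of RNA, 0.261 and 0.745 at 10 to 20 CPM, 0.309 and 0.806 at 20 to 100 CPM, and 0.216 and 0.840 at 100 CPM or more, the low-H3K4me3 genes first in each pair. H3K4me3 level and CpG content were not tested against each other. The first start in the table lay at the exact outer base of the gene for 217 of the 422 genes, but not for Fat1. A start within a few bases of that end was not counted, as in Dab2 (gene from 6299788, first start 6299789). The other expressed genes were not counted in this way.

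**Figure D2:**
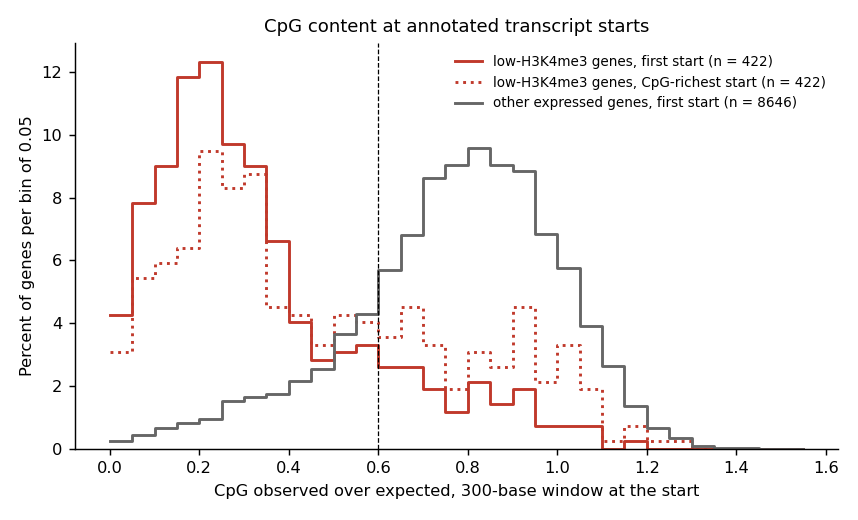
CpG observed over expected in the 300 bases at annotated starts (horizontal axis, a ratio) against the percent of genes in each bin of 0.05 (vertical axis), with a dashed line at 0.6. The low-H3K4me3 genes at their first start (red, solid) centre on a median of 0.277, the same genes at their CpG-richest start (red, dotted) on 0.366, and the other expressed genes (grey) on 0.795.

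The motif TATAAA, searched as those letters on both strands of the 300 bases, was present at the first start of 71 low-H3K4me3 genes (16.8%), against 5.98% of the other expressed genes and 13.6% of all promoters in the table. These shares were not tested against each other. A match is a description of letters and not evidence of a working TATA box.

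Alternative starts were common. At least 2 starts were listed for 173 of the 422 genes (41.0%) and for 1702 of the other expressed genes (19.7%). In 68 of those 173 (39.3%) the first start was not CpG rich and a later one was, against 253 (14.9%) of the 1702. Genes with a CpG-rich first start could not be counted here. Over all genes with a listed promoter those were 16.1% of the low-H3K4me3 genes and 79.3% of the others. Part of the gap between 39.3% and 14.9% therefore restates the difference at the first start. In the 68 and 253 genes the distance from the first to the richest start also differed. Its median was 12848 bp in the low-H3K4me3 genes and 831 bp in the others. Gpx4, a glutathione peroxidase that reduces lipid hydroperoxides, and Dnmt1, the maintenance DNA methyltransferase, are housekeeping examples that were chosen after their values were seen. In both, the 100 bases before the first and the CpG-richest start look unlike each other.
Gpx4 first start, chr10:80047066-80047165, plus strand: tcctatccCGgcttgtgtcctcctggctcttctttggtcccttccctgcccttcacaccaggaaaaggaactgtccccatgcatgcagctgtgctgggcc
Gpx4 richest start, chr10:80053465-80053564, plus strand: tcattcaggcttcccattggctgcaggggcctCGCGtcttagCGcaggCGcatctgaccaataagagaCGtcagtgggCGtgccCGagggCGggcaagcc
Dnmt1 first start, chr9:20959889-20959988, minus strand: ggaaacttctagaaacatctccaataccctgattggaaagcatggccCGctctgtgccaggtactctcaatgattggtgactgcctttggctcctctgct
Dnmt1 richest start, chr9:20952624-20952723, minus strand: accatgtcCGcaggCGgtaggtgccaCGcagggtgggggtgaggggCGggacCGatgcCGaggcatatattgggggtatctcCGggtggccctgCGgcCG
The richest start lay 6399 bp downstream in Gpx4 and 7265 bp downstream in Dnmt1, and CpG observed over expected went from 0.12 to 1.01 and from 0.10 to 0.91. RNA of Gpx4 was 189, 170 and 173 CPM at 0 h, and 225, 211 and 218 CPM at 48 h. RNA of Dnmt1 was 185, 192 and 182 CPM, then 152, 178 and 179 CPM. Their H3K4me3 values were 1.69 to 1.92 CPM and 0.779 to 1.65 CPM, which is in the range of genes without RNA. Whether the counted region covered the later starts was not tested.

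By these starts the low-H3K4me3 genes fell into 4 classes. A first start that was CpG rich was listed for 68 genes (median RNA 37.1 CPM), a later CpG-rich start for 68 (42.2 CPM), no CpG-rich start for 286 (12.3 CPM), and no start in the table for 122 (13.4 CPM). The 57 genes with 100 CPM or more divided into 9, 15, 23 and 10 in the same order. Low-H3K4me3 genes spanned a median of 37691 bp against 24445 bp in the other expressed genes, and 25.6% against 13.1% spanned more than 100000 bp. Another gene with at least 5 CPM of H3K4me3 lay within 5000 bp of 232 of the 540 genes with coordinates (43.0%), against 57.6% of the other expressed genes. Counts identical to those of another gene ID in every H3K4me3 library were found for 6 low-H3K4me3 genes.

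Among the most abundant transcripts were receptors, adhesion molecules and regulators of granulosa cells. These RNA levels are CPM, which are not corrected for transcript length, so genes are not ranked against each other by them. Tenm4, a teneurin transmembrane protein, had 3531, 3394 and 3547 CPM at 0 h and 2210, 1821 and 1730 CPM at 48 h. Every 48 h library lay under every 0 h library, and the log2 change was -0.69 ± 0.13 (SE, edgeR quasi-likelihood test, n = 3 per group, adjusted p = 0.00560). H3K4me3 at Tenm4 was 3.77 and 4.34 CPM at 0 h, and 2.98 and 3.39 CPM at 48 h.

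Fat1, an atypical cadherin, moved the opposite way, with 968, 1083 and 1093 CPM at 0 h and 1781, 1551 and 1605 CPM at 48 h. The groups did not overlap, and the log2 change was 0.82 ± 0.11 (adjusted p = 0.00121). Nr5a2, a nuclear receptor that granulosa cells need for ovulation, had 1155, 1044 and 1018 CPM at 0 h and 858, 1049 and 930 CPM at 48 h. Its groups overlapped, and its log2 change of -0.01 did not pass the test (adjusted p = 0.942). H3K4me3 at Nr5a2 was between 1.39 and 3.17 CPM in the 4 libraries, although its RNA was at least 858 CPM in all 6.

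Cyp19a1 encodes aromatase, the enzyme that makes oestradiol from androgens and a main target of FSH in these cells. Its RNA was 270, 150 and 244 CPM at 0 h, and 838, 808 and 686 CPM at 48 h. All 3 libraries at 48 h were above all 3 at 0 h, and the log2 change was 1.98 ± 0.22 (adjusted p = 6.29e-04). H3K4me3 stayed between 0.992 and 1.52 CPM in the 4 libraries, under the median of genes without RNA, and its log2 change of -0.51 ± 0.38 did not pass the test (adjusted p = 0.491). The table listed 3 starts, with CpG observed over expected of 0.27, 0.55 and 0.21, the second 39250 bp and the last 74421 bp downstream of the first. The 100 bases before the last start, which is nearest to the coding part of the gene, and those before the first are shown because they lie far apart.
Cyp19a1 first start, chr9:54268165-54268264, minus strand: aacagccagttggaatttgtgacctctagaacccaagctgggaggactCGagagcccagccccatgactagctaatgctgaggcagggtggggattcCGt
Cyp19a1 last start, chr9:54193744-54193843, minus strand: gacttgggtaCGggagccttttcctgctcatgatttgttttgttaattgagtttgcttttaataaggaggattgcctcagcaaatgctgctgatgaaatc
TATAAA was found in the 300 bases at the second and at the last start and not at the first. The 100 bases printed for the last start do not hold it.

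Several signalling and cytoskeletal genes were also highly expressed. Adgrg1, an adhesion G protein-coupled receptor, had 623, 707 and 734 CPM at 0 h and 901, 858 and 764 CPM at 48 h (log2 change 0.46 ± 0.11, adjusted p = 0.0149), a call lost with scaling by library size alone (0.29, adjusted p = 0.0615) and, narrowly, without 0 h replicate 2. Hif1a, the oxygen-regulated transcription factor subunit, had 326, 356 and 348 CPM and then 393, 606 and 604 CPM (0.80 ± 0.15, adjusted p = 0.00527). Gnas, the stimulatory G protein subunit through which the FSH receptor raises cAMP, had 710, 700 and 696 CPM and then 737, 825 and 773 CPM. Its log2 change was 0.32 ± 0.09 (adjusted p = 0.0323), 7 of 11 alternative fits lost the call, and the gene overlaps the antisense gene Gnasas1 in the gene table. Sptbn1, a spectrin of the membrane skeleton, had 687, 732 and 785 CPM and then 724, 667 and 654 CPM, with overlapping groups. The endocytic adaptor Dab2, the HMG-box factor Tox2 and the corepressor Ncor1 did not pass the test either (adjusted p = 0.765, 0.434 and 0.139).

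After 48 h of eCG, 115 low-H3K4me3 genes had higher RNA and 110 had lower RNA at an adjusted p under 0.05, and 319 did not pass the test. Those are 21.1% and 20.2% of the 544, beside 16.0% and 15.8% of all 14401 genes tested, and beside 18% and 17.2% of the other expressed genes. The 42 genes that reached 5 CPM at 0 h alone and the 42 at 48 h alone had to differ between them to pass the RNA minimum. Among the 460 that reached it at both times, 85 were higher (18.5%) and 93 lower (20.2%), beside 17.7% and 16.8% of 10447 other expressed genes of that kind. The share called higher was thus close to the background. At least 2-fold changes were called in 59 of the 460 (12.8%), 39 upward and 20 downward, beside 3.99% of the 10447. The median absolute log2 change was 0.34 in the 460 and 0.24 in the 10447. Spread between replicates has to be read beside this: the median SD of log2 RNA was 0.179 at 0 h and 0.231 at 48 h, against 0.106 and 0.134 in the other expressed genes. With scaling by library size alone the split was 91 higher and 158 lower, since that scaling puts the median change of all tested genes at -0.20 in place of -0.03. The count of lower genes was 70 without 0 h replicate 2, 68 without 0 h replicate 3, 66 without 48 h replicate 2 and 64 without 48 h replicate 3.

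The largest rises among genes whose groups did not overlap were of 2 kinds. In 8 of the 10 the mean at 0 h was under 5 CPM, so they passed the RNA minimum only through the 48 h libraries; their rise is part of how they were chosen, and their values are a description with no test. Pik3c2g, a class II phosphoinositide 3-kinase, had 0.0664, 0.0540 and 0 CPM at 0 h and 19.5, 6.49 and 8.57 CPM at 48 h. Over the group it had 2 reads at 0 h and 550 at 48 h, a 307-fold ratio after scaling by library totals, with a 95% counting interval of 84.6 to 2542. That interval covers counting error only, not the spread between libraries or the way the gene was chosen. Cdh15, the muscle cadherin, went from 0.133, 0.270 and 0.167 CPM to 44.0, 11.3 and 23.6 CPM (log2 change 7.20 ± 0.68).

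Plin4, a perilipin that coats lipid droplets, had 3.99, 4.81 and 4.78 CPM at 0 h and 153, 60.8 and 104 CPM at 48 h (4.71 ± 0.35). Zpld1 and Ecm1 reached 5 CPM at both times. Zpld1, a zona pellucida domain protein, had 8.11, 6.54 and 6.45 CPM and then 62.2, 94.5 and 84.0 CPM (3.69 ± 0.18, adjusted p = 2.20e-05). Ecm1, an extracellular matrix protein, had 25.4, 29.0 and 30.6 CPM and then 514, 164 and 237 CPM (3.61 ± 0.40, adjusted p = 5.81e-04). In Pik3c2g, Cdh15, Plin4 and Ecm1, but not in Zpld1, 48 h replicate 1 was the highest library. The metallopeptidase gene Mmel1 (log2 change 4.23), the contactin gene Cntn3 (4.01), Cyp26b1 (3.14), whose enzyme degrades retinoic acid, Apol6 (2.82) and Slc4a1 (2.69) were the other large rises, all from a 0 h mean under 5 CPM. Plin4 overlaps Hdgfl2 and Apol6 overlaps Mb in the gene table, and strand was not stated, so their reads could be shared.

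The largest falls were smaller in size. Nos2, Otof, Itih2 and Kcnk2 reached 5 CPM at both times, while Ngef, Ripor3, Atp2b3, Krt20 and H1f8 had a 48 h mean under 5 CPM and passed the minimum only through the 0 h libraries, so their falls are a description. Ngef, a guanine nucleotide exchange factor, had 16.4, 17.3 and 20.4 CPM at 0 h and 3.25, 2.58 and 3.58 CPM at 48 h (log2 change -2.38 ± 0.18). Nos2, the inducible nitric oxide synthase, had 195, 159 and 142 CPM and then 39.8, 32.7 and 37.1 CPM (-2.01 ± 0.14, adjusted p = 1.12e-04). Otof, the calcium sensor otoferlin, had 51.4, 82.2 and 89.7 CPM and then 15.1, 17.2 and 21.0 CPM (-1.90 ± 0.20, adjusted p = 4.56e-04). In these 3 genes the 48 h libraries lay close together and far under the 0 h libraries. Itih2, a heavy chain that links to hyaluronan, had 97.1, 92.5 and 99.2 CPM and then 33.6, 17.5 and 26.0 CPM. Ripor3 and the plasma membrane calcium pump Atp2b3 each had a log2 change of -1.89, the keratin Krt20 -1.84, the oocyte linker histone H1f8 -1.73 and the potassium channel Kcnk2 -1.54. The call of H1f8 was lost when any library other than 48 h replicate 1 was left out.

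**Figure D3:**
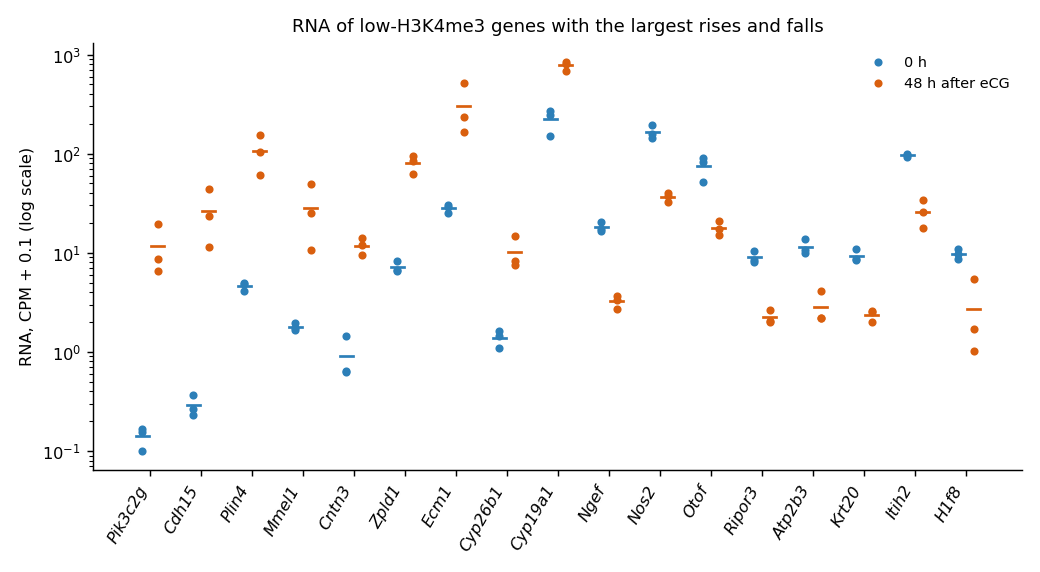
RNA in each of 3 libraries per group (points, CPM + 0.1, log scale) with the group mean (line), for the 8 largest rises, Cyp19a1 and the 8 largest falls among the low-H3K4me3 genes. Pik3c2g and Cdh15 start near 0 and Nos2 falls from 142 to 195 CPM to 32.7 to 39.8 CPM.

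RNA changes were also counted within the classes by annotated start. Genes with a CpG-rich first start had 9 higher and 15 lower of 68 (35.3% called, median absolute log2 change 0.28), and those with a later CpG-rich start had 16 and 18 of 68 (50%, 0.33). Genes with no CpG-rich start had 67 higher and 55 lower of 286 (42.7%, 0.53), and those with no listed start had 23 and 22 of 122 (36.9%, 0.40). In the other expressed genes 35.2% were called, with a median absolute log2 change of 0.25, so the class with a CpG-rich first start was at that level. All 544 genes were counted here, including the 42 that reached 5 CPM at 0 h alone and the 42 at 48 h alone. Those had to differ between the groups, so part of these changes comes from how the genes were chosen. These are descriptions, and the classes were not tested against each other.

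Most expressed markers of some other cell types had low H3K4me3, although such markers were only 33 of the 544 genes. Every expressed gene of the immune list (11 of 11) and of the red cell list (2 of 2) was among them, as were 7 of 9 oocyte markers and 8 of 12 endothelial markers. Among the other lists it was 3 of 9 smooth muscle and pericyte markers, 1 of 7 surface epithelium markers, 1 of 11 theca markers, 2 of 20 granulosa markers (Cyp19a1 and Nr5a2), 1 of 15 steroid synthesis genes (Cyp19a1) and 0 of 16 gonadotropin response and luteal genes. The share over all expressed genes was 4.82%. These shares follow from the values that chose the genes and carry no test. The part that other cells in the samples had in the RNA of the 544 genes was not tested, and in such bulk libraries fewer cells of a type and less RNA per cell cannot be told apart.

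**Figure D4:**
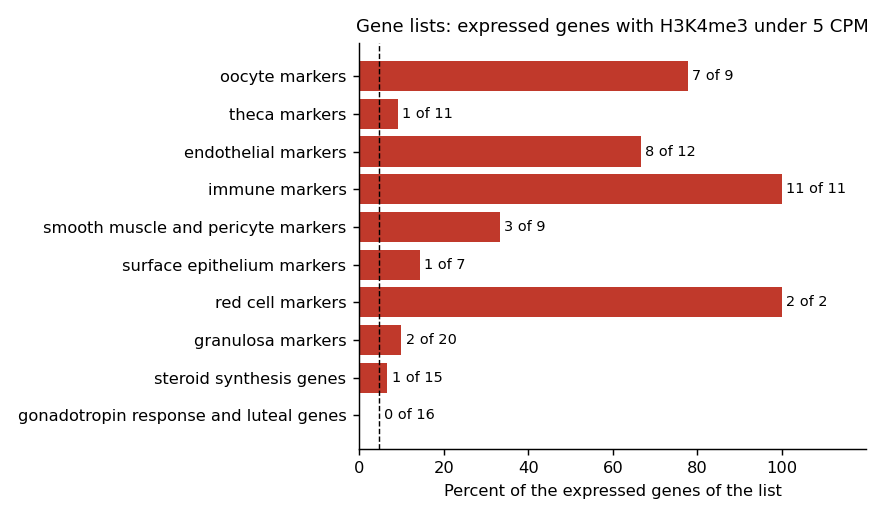
Percent of the expressed genes of each list that had H3K4me3 under 5 CPM (bars), with their number; the dashed line marks the 4.82% found over all expressed genes. The immune and red cell lists reach 100%, the oocyte list 77.8% and the endothelial list 66.7%, and the granulosa list stands at 10%.

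Endothelial markers were higher at 48 h. Of the 8 low-H3K4me3 genes on that list 7 were called higher and Vwf (log2 change -0.23, adjusted p = 0.530) did not pass the test. Over all genes tested 16.0% were called higher. Of the 7, Tek, Plvap and Emcn had a 0 h mean under 5 CPM and so passed the RNA minimum only through the 48 h libraries, while Cdh5, Pecam1, Tie1 and Egfl7 reached it at both times. Cdh5, the cadherin of endothelial junctions, had 32.5, 30.4 and 31.9 CPM at 0 h and 168, 63.7 and 69.7 CPM at 48 h (1.84 ± 0.35, adjusted p = 0.00512). Pecam1, a junctional adhesion molecule, had 11, 13 and 10.8 CPM and then 76.7, 23.7 and 27.3 CPM (2.05 ± 0.43, adjusted p = 0.00763). In both genes 48 h replicate 1 was more than 2 times as high as the other 48 h libraries, which were still above every 0 h library.

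Over the whole endothelial list of 12 genes the summed level was 123, 128 and 130 CPM at 0 h and 638, 210 and 261 CPM at 48 h. Without 48 h replicate 1 the same 7 of 8 were called higher, but by less: the log2 change was 1.23 for Cdh5, 1.28 for Pecam1, 1.04 for Tie1 and 1.19 for Egfl7. The median over the 8 genes was 1.78 with that library and 1.19 without it, beside -0.03 over all genes tested in both fits. The count of 7 and this median include Tek, Plvap and Emcn, which passed the RNA minimum only through the 48 h libraries. Both are therefore a description. Without any single 0 h replicate the angiopoietin receptor Tek lost its call, leaving 6. Lum, a proteoglycan on the theca list, and Rgs5, a pericyte marker, rose as well. Their log2 changes were 1.22 and 1.27, and 0.61 and 0.76 without 48 h replicate 1. Both lost the call without any single 0 h replicate. Their lists did not rise as a whole. The theca list of 12 summed to 1566.0, 1085.5 and 1217.8 CPM at 0 h and 2084.5, 911 and 792 CPM at 48 h. The smooth muscle and pericyte list of 10 summed to 404, 401 and 372 CPM and then 520, 226 and 285 CPM. Its other low-H3K4me3 genes, Tagln and Cnn1, were not called.

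The 2 red cell genes were higher at 48 h. Alas2, the erythroid enzyme that starts haem synthesis, had 89.4, 71.5 and 130 CPM at 0 h and 467, 145 and 621 CPM at 48 h (log2 change 2.25 ± 0.47, adjusted p = 0.00767). Slc4a1, the anion exchanger of the red cell membrane, had 2.79, 2.65 and 4.95 CPM and then 25.4, 8.88 and 26.5 CPM (2.69 ± 0.44), and passed the RNA minimum only through the 48 h libraries. In both, 48 h replicate 2 was the lowest of its group and still above the 0 h libraries. The 4 globin genes on the list, which are among the most abundant transcripts of red cells, are listed with a count of 0 in all 6 RNA libraries. Whether their reads were removed before the counts were made is not given in the sources used here, so these zeros do not measure red cell RNA. Alas2 also overlaps Apex2 in the gene table.

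Oocyte markers were lower in some 48 h libraries. Bmp15, a growth factor secreted by the oocyte, had 13.4, 17.2 and 14.9 CPM at 0 h and 9.75, 3.34 and 4.41 CPM at 48 h (log2 change -1.22 ± 0.35, adjusted p = 0.0286). Zp2, which encodes a zona pellucida protein, had 20.9, 20.8 and 19.0 CPM and then 24.7, 9.0 and 9.66 CPM, and did not pass the test (-0.32, adjusted p = 0.526). In Zp2 replicate 1 at 48 h lay above every 0 h library while the other two lay under them. Of the 7 oocyte genes, H1f8 and Bmp15 were called lower and 5 were not called, and 7 were called lower without 48 h replicate 1. Without any other single library the count was 0. Over all genes tested 15.8% were called lower. H1f8 passed the RNA minimum only through the 0 h libraries, so its fall is part of how it was chosen. The whole oocyte list of 18 summed to 145, 173 and 146 CPM at 0 h and 123, 46.9 and 45.8 CPM at 48 h.

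No immune marker passed the test. By edgeR 0 of the 11 were called (0 at an unadjusted p under 0.05, 0 by DESeq2), and their median log2 change was -0.12. Lyz2, the lysozyme of macrophages, had 126, 186 and 137 CPM at 0 h and 130, 84.1 and 117 CPM at 48 h, with overlapping groups. Cd74, the chaperone of MHC class II, had 27.8, 76.5 and 45.8 CPM and then 33.8, 23.8 and 31.7 CPM (log2 change -0.58, adjusted p = 0.175). The whole list of 12 summed to 276, 468 and 345 CPM and then to 336, 210 and 285 CPM, so the highest library was an untreated one.

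**Figure D5:**
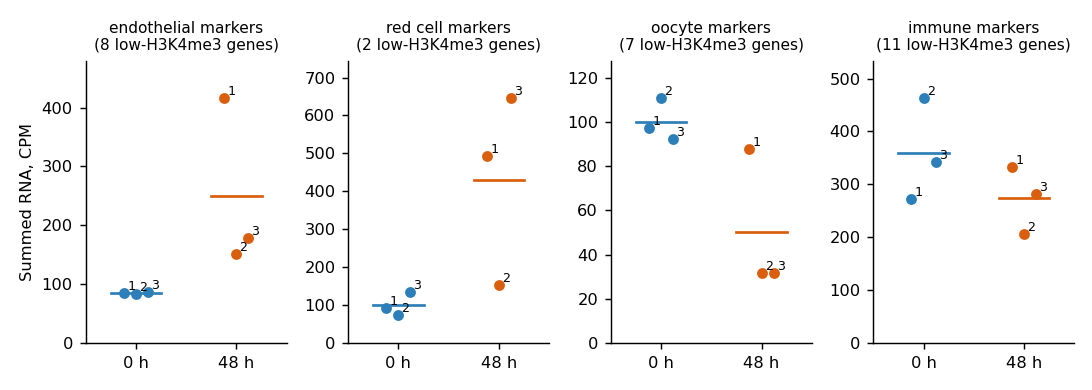
Summed RNA (vertical axis, CPM, starting at 0) of the low-H3K4me3 genes on 4 marker lists, 1 point per library with its replicate number and the group mean as a line. For the endothelial list 48 h replicate 1 stands at 417 CPM against 152 and 179 CPM in its group, and for the oocyte list it stands at 87.6 CPM against 31.8 CPM in both others.

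Few changes in H3K4me3 were called at these genes, which were chosen for low H3K4me3. At an adjusted p under 0.05, 4 low-H3K4me3 genes were higher at 48 h (0.735%, beside 6.35% of all 24476 genes tested) and 12 were lower (2.21%, beside 2.08%). The share called lower was close to that over all genes tested, which were not matched for H3K4me3 level. The counts behind these tests were low, with the median of 124 reads per gene over 4 libraries given above. The median log2 change was -0.17 in the 544 genes and -0.23 in 4592 genes with no RNA counts and under 5 CPM of H3K4me3. Of those 4592, 0 were called higher by edgeR (10 at an unadjusted p under 0.05, 0 by DESeq2) and 22 lower. The share called lower was smaller in those 4592 than in the 544, a difference that was not tested. The mean passed 5 CPM at 0 h in 20 of the 544 genes and at 48 h in 8; such genes stayed under the limit only through the other group, so part of their difference comes from how they were chosen. Among the 16 called, RNA was called the same way in 6, the opposite way in 2 and not called in 8. Over all 544 genes 41.4% were called in RNA, 21.1% higher and 20.2% lower. The 16 include genes whose H3K4me3 mean passed the limit in a single group. The directions in RNA and H3K4me3 were not tested against each other.

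Myo7a, an unconventional myosin, was higher in both assays. Its H3K4me3 was 2.58 and 2.67 CPM at 0 h, and 5.66 and 7.12 CPM at 48 h (log2 change 1.34 ± 0.24). Its RNA was 31.2, 42.1 and 33.4 CPM at 0 h, and 140, 88.7 and 98.1 CPM at 48 h (1.79 ± 0.19). Plin4 had H3K4me3 of 1.92 and 1.75 CPM and then 4.38 and 3.45 CPM (1.14 ± 0.29, adjusted p = 0.00717), a call lost without 0 h replicate 1 (adjusted p = 0.221) or 48 h replicate 1 (adjusted p = 0.171). Gstm6, a glutathione transferase, had 3.64 and 3.17 CPM and then 5.37 and 5.45 CPM (0.72 ± 0.24), a call that 8 of 9 alternative fits lost. Myo7a and Gstm6 had a 48 h mean of 5 CPM or more, so their values are a description, and the call of Myo7a was lost without 0 h replicate 1. In all 3 genes no library of one group overlapped the other.

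The fourth gene called higher, Zfp932, rested on 1 library. Its H3K4me3 was 3.04 and 2.25 CPM at 0 h, and 2.33 and 9.63 CPM at 48 h, and without 48 h replicate 2 the log2 change went from 1.22 to -0.13. Its 48 h mean was also over 5 CPM of H3K4me3, so these values are a description. Its RNA fell by 0.69 on the log2 scale (adjusted p = 0.00560).

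Among the falls, Adamtsl2, a secreted matrix glycoprotein, had the largest. Its H3K4me3 was 5.36 and 5.34 CPM at 0 h, and 2.10 and 1.67 CPM at 48 h (log2 change -1.45 ± 0.27), and all 9 alternative fits called it. Its RNA was lower as well (-0.69 ± 0.22, adjusted p = 0.0455). Otof had H3K4me3 of 6.22 and 6.59 CPM and then 2.68 and 3.56 CPM (-0.98 ± 0.23), and Itih2 had 3.83 and 3.09 CPM and then 1.75 and 1.39 CPM (-1.09, adjusted p = 0.0128). RNA of both genes fell, as given above. Adamtsl2 and Otof had a 0 h mean over 5 CPM of H3K4me3, so their falls are a description. Prelp, a matrix proteoglycan (-1.14, adjusted p = 0.00795), and Ovgp1, the oviduct glycoprotein (-1.20, adjusted p = 0.00764), were called lower in H3K4me3 with no call in RNA. Calls were lost without 0 h replicate 1 in Ovgp1, Prelp, Itih2 and Otof, without 48 h replicate 1 in Ovgp1 and Otof, and without 48 h replicate 2 in Ovgp1, Prelp and Itih2. Across the 4 H3K4me3 libraries, leaving out 1 gave 0 to 3 higher and 1 to 10 lower, the fewest in each case without 0 h replicate 1. Without 48 h replicate 1 there were 2 higher and 6 lower, and without 48 h replicate 2 there were 2 higher and 4 lower.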

How the data were processed

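Both tables deposited by the authors hold raw counts for each Entrez gene ID, as whole numbers with unequal library totals. The submitters' processing notes name STAR, kallisto, sleuth, Picard and FastQC 0.11.5 for RNA, and Bowtie2 2.2.9, Trimmomatic, ChIPseeker 1.18.0 and MACS2 2.2 for H3K4me3, on build mm10. Counting program, strand and H3K4me3 region: not given in the sources used here. H3K4me3 columns were tied to groups by name, and their numbers only name libraries. The input library was not used here.

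Levels are CPM by library size. Changes are log2 of 48 h over 0 h from edgeR 4.0.16 (R 4.3.3, limma 3.58.1; TMM scaling, filterByExpr, quasi-likelihood test), fitted on each whole table with Benjamini-Hochberg adjustment and tested on simulated data. Intervals cover counting error only. DESeq2 1.42.0, other scalings and filters, a replicate block and leaving out each library were alternatives. Coordinates, symbols and promoters came from RefSeq tables of GRCm38.p6.

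The genes, marker lists and naming rule were chosen with earlier results of these data known. Named are the 12 with most RNA, the 10 largest RNA rises and falls called with groups that do not overlap, list genes, those nearest each threshold, and the 5 largest H3K4me3 rises (4 were called) and falls; predicted genes were not named, and some genes the rule picks are not reported here.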

Additional observations from a re-analysis of the deposited data

How the results depend on the processing

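The set numbered 359 with an RNA minimum of 10 CPM, and 530 to 559 when 1 library was left out. Of the 544 genes, 482 were also selected by the 0 h libraries alone (546 genes) and 494 by the 48 h libraries alone (557). Genes higher in RNA numbered 82 to 119 and genes lower 64 to 138 when 1 library was left out. For H3K4me3 the higher genes numbered 1 with DESeq2, 2 with library size alone and 0 to 3 with 1 library left out, and the lower genes 2 with DESeq2 and 1 to 10 with 1 library left out. With the replicate block, RNA gave 103 higher and 93 lower and H3K4me3 gave 3 and 10. Same-numbered libraries did not deviate together (correlations of -0.211, -0.145 and -0.123 in RNA, 0.0248 in H3K4me3), and the numbers were not taken as pairs. The block ended the call of Gnas in RNA (adjusted p = 0.0950) and of Gstm6 in H3K4me3 (adjusted p = 0.156). Genes with another marked gene nearby numbered 91 with overlap alone. TATANA was found in 25.1% of first starts, and TATAAA in 5.69% when only the last 50 bases before the start were searched.

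Genes that changed direction were near 0 or rested on 1 library. The log2 change of Nr5a2 was 0.0134 with DESeq2, 0.00851 with DESeq2 size factors, and -0.0727 to 0.0650 when 1 library was left out. Sptbn1 was at -0.109 with library size alone and -4.24e-04 (without 48 h replicate 1) to 0.131 when 1 library was left out. Dab2 was at -0.114 with library size alone and -0.0159 (without 48 h replicate 2) to 0.159 when 1 library was left out. Zfp932 in H3K4me3 was at -0.126 (without 48 h replicate 2) to 1.87 when 1 library was left out. The cause of these changes was not tested. H3K4me3 depth limits single genes, which had a median of 124 reads over 4 libraries.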

Other observations

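The genes in this part were chosen after their values were seen, and no explanation is offered for them. Ash2l and Dpy30, which encode subunits of complexes that methylate H3K4, were among the low-H3K4me3 genes; other subunits were not counted. Ash2l had RNA of 90.2, 87.5 and 83.4 CPM at 0 h and 61.5, 79.3 and 79.7 CPM at 48 h, with H3K4me3 of 0.779 to 1.85 CPM. Dpy30 had RNA of 42.9, 35.2 and 33.2 CPM and then 31.3, 35.5 and 32.6 CPM, with H3K4me3 of 1.67 to 2.51 CPM. Neither passed the RNA test. Dpy30 had 4 listed starts, and its CpG observed over expected was 0.0810 at the first and 1.0 at the richest, which lay 7733 bp away.

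Genes of lipid metabolism moved in both directions. Acaca and Acacb, the acetyl-CoA carboxylases of fatty acid synthesis and of the control of fatty acid oxidation, rose by 0.91 and 0.42 on the log2 scale (adjusted p = 2.53e-04 and 0.0128). Acaca overlaps Gm11437 and Tada2a in the gene table, and strand was not stated, so its reads could be shared. Cd36, a fatty acid transporter, had 230, 172 and 168 CPM at 0 h and 120, 131 and 110 CPM at 48 h (-0.49, adjusted p = 0.0309). Plin1, a perilipin like Plin4, did not pass the test (0.11, adjusted p = 0.789) and was highest in 48 h replicate 1 at 36.2 CPM.

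Runx1, a transcription factor with distant alternative promoters, had RNA of 51.3, 54.3 and 54.2 CPM at 0 h and 23.0, 23.7 and 25.6 CPM at 48 h (-0.98, adjusted p = 2.04e-04). Its H3K4me3 was 3.64 and 2.67 CPM and then 3.56 and 3.01 CPM, and its CpG-richest listed start lay 128745 bp after the first. Ovgp1 RNA differed widely between replicates, with 43.1, 379 and 52.5 CPM at 0 h and 75.8, 79.6 and 230 CPM at 48 h.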
